A study of Mus musculus with 8 samples.

Results

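The clustered protocadherin genes lie head to tail on mouse chromosome 18 and were followed through chromatin loops, topologically associating domains (TADs) and CTCF peaks. The members were the regions of 8 deposited lists that fell in chr18:36900000-37860000 (mm10, the same assembly as GRCm38): loops with an anchor there, TADs touching it and CTCF peaks lying in it. In all, 65 of the 72488 listed regions were members. Embryonic stem (ES) cells had 12 of their 8459 loops there, lens epithelium (hereafter epithelium) 6 of 8005, and lens fiber cells (fiber cells) 5 of 7682. Each cell type had 1 TAD there, of 3604, 1796 and 2641 in the same order. The CTCF peaks numbered 20 of 16433 for epithelium and 19 of 23868 for fiber cells, and no CTCF list of ES cells was used here.

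Hi-C, which counts ligated DNA fragments as a record of contacts in the nucleus, was run on lens epithelium and on lens fibers of CD-1 mice at postnatal day 0.5. The third cell type was the wild-type mouse ES cell line v6.5, a male line of mixed strain other than CD-1, grown without feeder cells. Strain and cell type therefore cannot be told apart between ES cells and lens. Each Hi-C replicate came from 30 pooled lenses or from 2000000 ES cells fixed in 2.0% formaldehyde, and the authors merged 2 replicates per cell type before calling loops and TADs. CTCF ChIP-seq used chromatin of 200 pooled lenses. Each cell type is therefore represented by 1 list of each kind, with no error between replicates, so no difference between cell types could be tested. The lists hold no expression values, so the labelled cell types were not checked against marker genes.

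Clustered protocadherins are cell-surface adhesion proteins that bind matching copies on neighbouring cells, best known as the surface identity code of neurons. In the alpha (Pcdha) and gamma (Pcdhg) clusters, each variable exon has a promoter of its own and is spliced to constant exons shared by the whole cluster, whereas each beta (Pcdhb) gene is a separate exon. CTCF and the loop-extruding complex cohesin are known in neurons to bring chosen variable promoters to distant enhancers, and the C-type variable exons at the end of the alpha and gamma clusters follow other rules of choice than the alternate ones. The gene table held 58 of these genes. They comprised 12 alternate Pcdha genes, 5 C-type genes (Pcdhac1, Pcdhac2, Pcdhgc3, Pcdhgc4 and Pcdhgc5), 22 Pcdhb genes, 12 Pcdhga genes and 7 Pcdhgb genes, of which Pcdhgb8 is a transcribed pseudogene.

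ES cells had the most loops at the clusters, and fiber cells had the fewest. The paper gives ES cells the lowest share of contacts between chromosomes, and the part of map depth in these counts was not tested. Over 2732 consecutive windows of 960 kb across the genome, the median number of loops per window was 3 in ES cells (quartiles 1 and 6), 4 in epithelium (2 and 6) and 4 in fiber cells (1 and 6). The 12 ES cell loops were thus above the upper quartile of their list, the 6 loops of epithelium were at it, and the 5 of fiber cells lay between the median and the upper quartile. The loops had a median size of 170 kb in ES cells (70 to 475 kb), 162.5 kb in epithelium (40 to 400 kb) and 200 kb in fiber cells (85 to 575 kb). The medians of the whole lists were 220, 250 and 270 kb, above those of the clusters in each cell type.

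**Figure D1:**
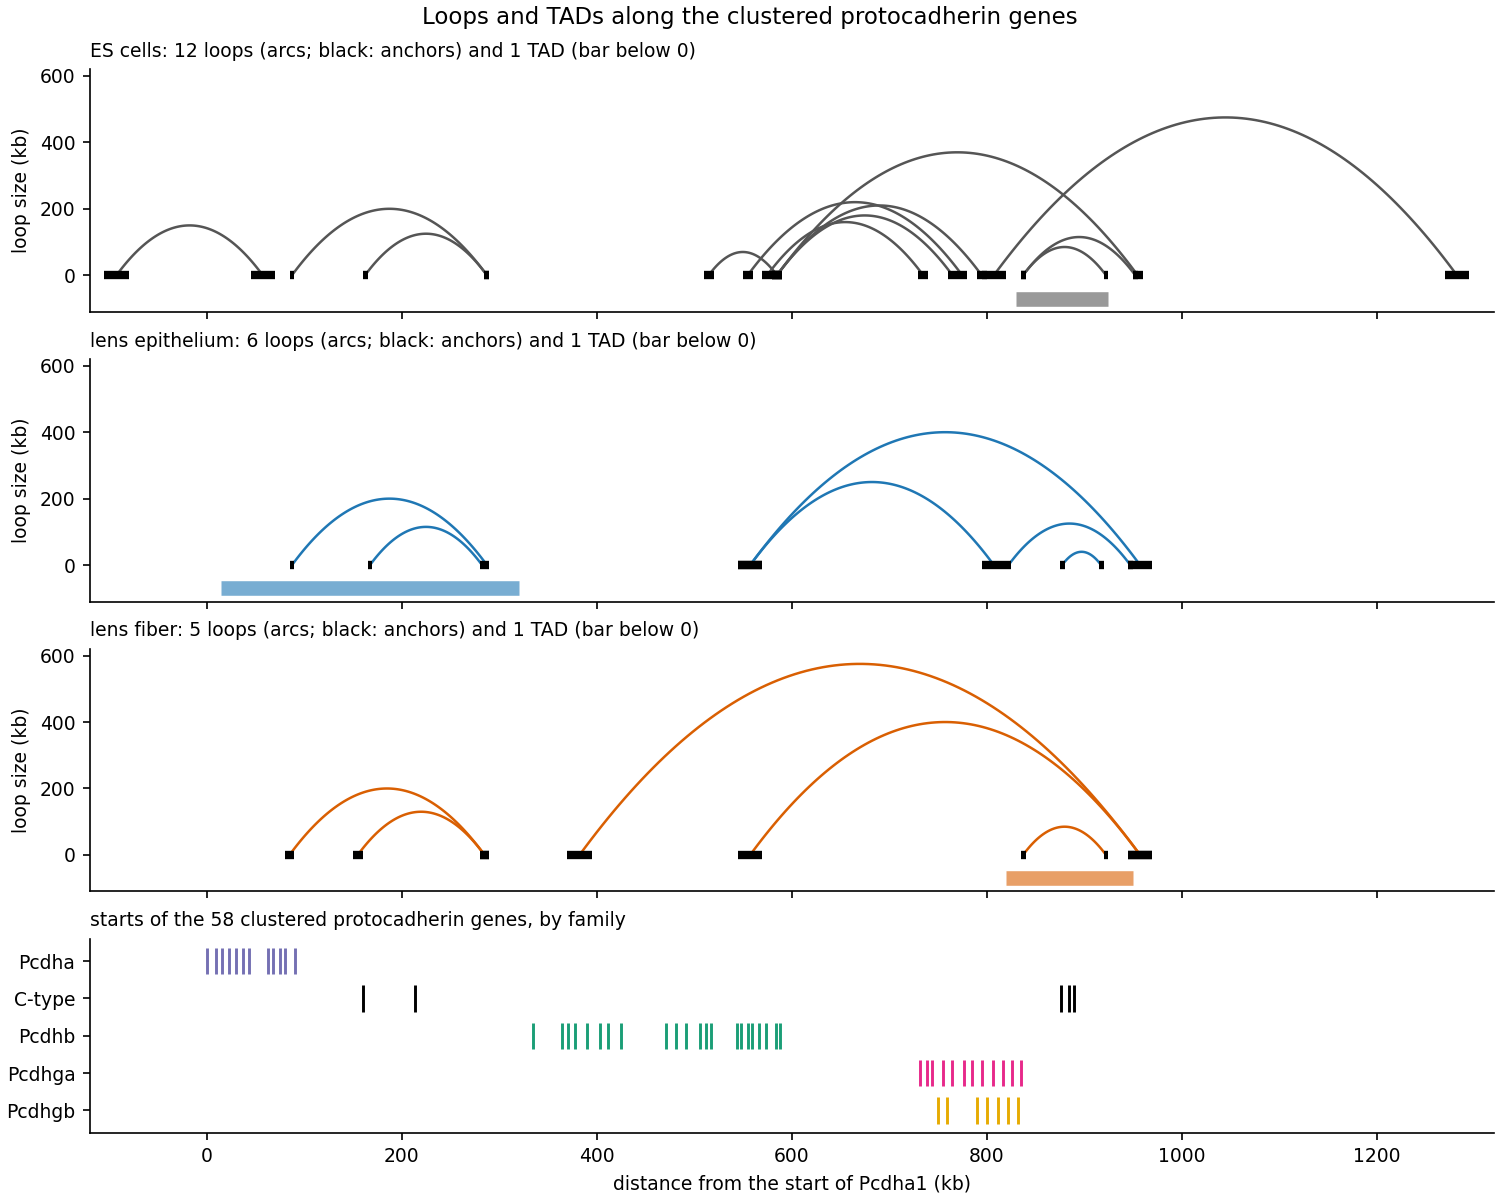
Loops and TADs along the clustered protocadherin genes in ES cells, epithelium and fiber cells; the x axis is the distance from the start of Pcdha1 in kb, the height of each arc is the loop size in kb, black blocks are anchors, bars under the axis are TADs and ticks in the lowest panel are gene starts by family. All 3 cell types have a pair of loops from Pcdha to the gap before Pcdhb, while the arcs over Pcdhb and Pcdhg differ. Over the whole window, with the Pcdha loops counted in, ES cells have 12 loops against 6 and 5 in the lens lists.

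The Pcdha cluster had a longer and a shorter loop in each of the 3 cell types. Both ran from the cluster to an anchor in the gap between Pcdha and Pcdhb, downstream of the constant exons. The longer of the pair started between the starts of Pcdha11 and Pcdha12. In ES cells and in epithelium it joined chr18:37015001-37020000 to chr18:37215001-37220000, the same 5 kb anchors in both lists. In fiber cells it was called with 10 kb anchors, chr18:37010001-37020000 and chr18:37210001-37220000, and the first of these took in the start of Pcdha11.

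Its strength was read as the ratio of observed contacts to those expected from the surrounding donut of the same map, with an exact 95% Poisson interval that covers counting error only. The longer Pcdha loop held 44 contacts in ES cells, 5.9 times expectation (4.28 to 7.92). In epithelium it held 19 contacts, 5.33 times expectation (3.21 to 8.33), and in fiber cells 63 contacts, 3.26 times expectation (2.51 to 4.17). The value in fiber cells was the lowest, and its interval lay just under that of ES cells. The fiber call used wider anchors, and the part of anchor width in this gap was not tested. At the 5 kb anchors common to ES cells and epithelium, the donut expectation was 7.46 contacts in ES cells and 3.56 in epithelium.

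The shorter Pcdha loop began at or near Pcdhac1, the first of the C-type exons. In ES cells its anchor, chr18:37090001-37095000, held the start of Pcdhac1, and the loop reached 3.81 times expectation (2.68 to 5.25, 37 contacts). In epithelium the anchor sat in the next 5 kb bin, chr18:37095001-37100000, at 4.43 times expectation (2.74 to 6.78, 21 contacts). In fiber cells the anchor was chr18:37080001-37090000, ending just short of the Pcdhac1 start at 37090136, at 2.73 times expectation (2.11 to 3.48, 66 contacts). The 3 intervals overlapped. The largest FDR of the shorter loop was 0.0483 in epithelium and 0.0108 in fiber cells, so at a stricter limit of 0.01 it stayed in ES cells alone. The longer and shorter loops were the only ones with an anchor on the body of the Pcdha cluster, apart from 1 in ES cells. That loop joined chr18:36825001-36850000 upstream to the stretch with the starts of Pcdha8 and Pcdha9 (2.18 times expectation, 1.73 to 2.72). No loop of any list joined Pcdha to Pcdhb or to Pcdhg.

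The lists differed at Pcdhb and Pcdhg. ES cells had 4 loops between Pcdhb and Pcdhg genes, epithelium had 1 and fiber cells had none. In ES cells these joined Pcdhb17 and Pcdhb18 to Pcdhga6 (2.07 times expectation, 1.62 to 2.61), Pcdhb20 to Pcdhga1 and Pcdhga2 (2.35, 1.86 to 2.93), and Pcdhb21 and Pcdhb22 both to Pcdhga5 (2.62, 2.12 to 3.21) and to Pcdhgb4 and Pcdhga8 (3.23, 2.61 to 3.97). The largest FDR was 0.0104 for the Pcdhb20 loop and 0.0137 for the loop to Pcdhga5, so both were lost at the stricter limit of 0.01. The 10 kb anchor with the starts of Pcdhb21 and Pcdhb22, the last genes of the beta cluster, was an end of 4 of the 12 ES cell loops. Beside its Pcdhg partners it also met Pcdhb13 and Pcdhb14 within the beta cluster (2.21, 1.77 to 2.73) and a site past the gamma cluster (4.63, 3.23 to 6.44). In epithelium the loop between the clusters had 25 kb anchors, over the starts of Pcdhb16, Pcdhb17, Pcdhb18 and Pcdhb19 and over those of Pcdhga8, Pcdhgb5, Pcdhga9, Pcdhgb6 and Pcdhga10, at 2.09 times expectation (1.62 to 2.65). Its midpoints lay 27.5 and 12.5 kb from those of the ES cell loop to Pcdhgb4 and Pcdhga8. They lay 2.5 and 32.5 kb from those of the ES cell loop to Pcdhga6. Both ES cell loops were called with 10 kb anchors.

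The lens lists shared a longer loop that passed over the whole gamma cluster. It joined chr18:37475001-37500000, with the starts of Pcdhb16 to Pcdhb19, to chr18:37875001-37900000 in the body of Diaph1, which encodes a formin that nucleates actin filaments. It held 94 contacts in epithelium, 3.94 times expectation (3.18 to 4.82), and 142 in fiber cells, 4.26 times expectation (3.59 to 5.02). The 2 ratios were alike within their intervals, and the loop spanned 25 gene starts in both. The nearest ES cell loop, from Pcdhb21 and Pcdhb22 to chr18:37880001-37890000, also passed over the whole gamma cluster and spanned 22 gene starts. Its midpoints lay 27.5 and 2.5 kb from those of the lens loop. Fiber cells had a second loop to the same Diaph1 anchor, from chr18:37300001-37325000 over the starts of Pcdhb3, Pcdhb4 and Pcdhb5. At 575 kb it was the longest loop of the clusters, it spanned 39 of the 58 gene starts, and it reached 3.51 times expectation (2.69 to 4.5, 62 contacts).

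The end of the gamma cluster was tied to Diaph1 in all 3 cell types. ES cells joined the start of Pcdhga12, the last Pcdhga gene, to chr18:37850001-37855000 at 3.94 times expectation (3.18 to 4.83, 93 contacts) and to chr18:37880001-37885000 at 4.42 (3.46 to 5.57, 72 contacts). Fiber cells had the former of these at the same 5 kb anchors, at 3.71 times expectation (2.58 to 5.15, 35 contacts). Epithelium had neither at these anchors. Its own loops joined the start of Pcdhgb7 to chr18:37875001-37880000 at 5.21 times expectation (3.41 to 7.64, 26 contacts) and the start of the C-type gene Pcdhgc3 to chr18:37845001-37850000 at 2.83 (32 contacts). The Pcdhgb7 loop ended 15 and 5 kb from the longer of the ES cell pair, so that the neighbouring calls were unequal at the 10 kb tolerance used for sharing. A further ES cell loop reached from Pcdhga8, Pcdhgb5, Pcdhga9, Pcdhgb6 and Pcdhga10 to chr18:38200001-38225000, at 2.29 times expectation (1.81 to 2.85). That anchor lay over part of Pcdh1, a protocadherin outside the clusters, and over the lower-coordinate end of 2010320O07Rik. The gene table gives no strand, so which end of either gene is its start was not read.

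**Figure D2:**
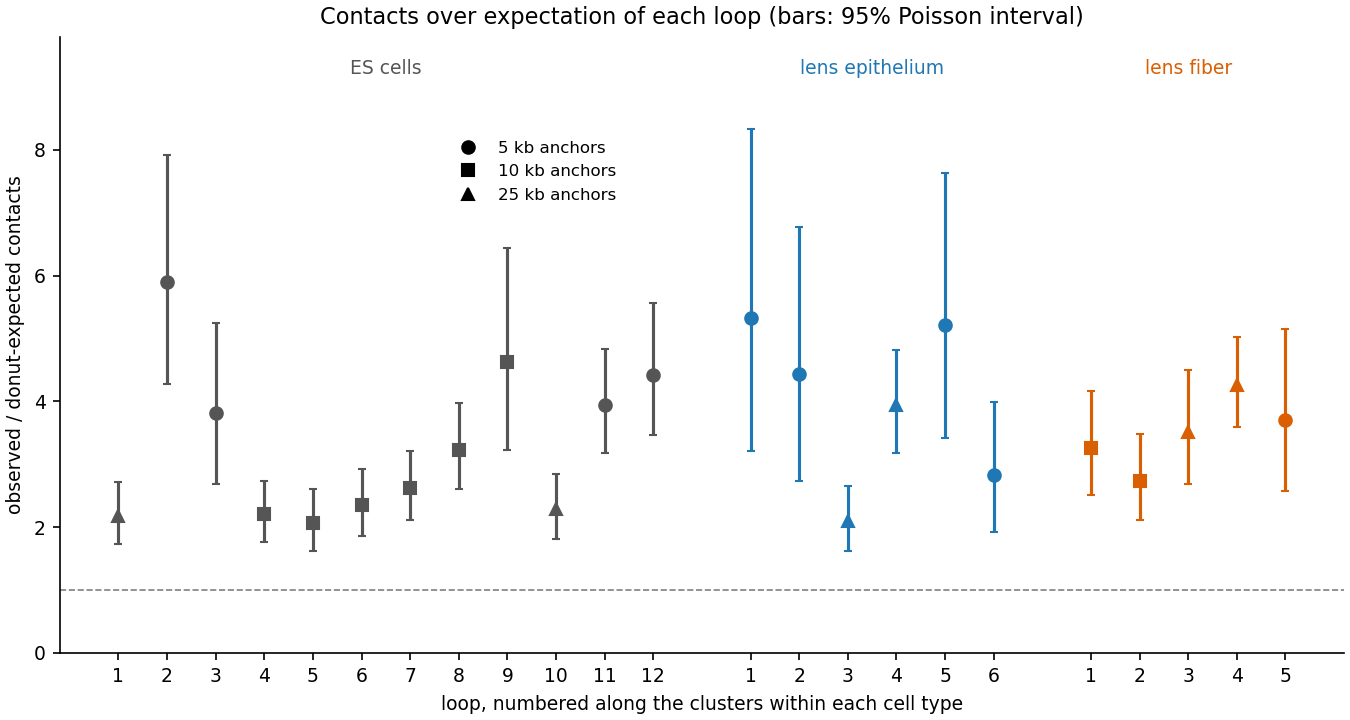
Observed over donut-expected contacts (y axis, ratio) of each loop, numbered along the clusters within each cell type (x axis); bars are exact 95% Poisson intervals, symbols give the anchor width and the dashed line marks a ratio of 1. The ratios run from 2.07 to 5.9 in ES cells, 2.09 to 5.33 in epithelium and 2.73 to 4.26 in fiber cells, and the widest interval, 3.21 to 8.33, is that of the first epithelium loop.

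Loops were then compared between the lists by position. Loops counted as shared when neither anchor midpoint was more than 10 kb from its counterpart. Of the 12 ES cell loops, 2 were shared with epithelium and 3 with fiber cells, against 35.9% and 34.6% of all ES cell loops, which both lie inside the exact 95% binomial intervals of the counts (2.09 to 48.4% and 5.49 to 57.2%). Of the 6 loops of epithelium, 2 were shared with ES cells and 2 with fiber cells, against 37.9% and 55.5% of the list. Of the 5 loops of fiber cells, 3 were shared with ES cells and 2 with epithelium, against 38.1% and 57.8%. So few loops cannot be set apart from the shares of their lists. At 10 kb, 9 of the 12 ES cell loops had no counterpart in either lens list, against 57% of all ES cell loops, and at 25 kb 8 had none and 4 were shared with epithelium. In epithelium 3 loops had none at 10 kb, against 35.8% of the list, and in fiber cells 1, against 34.4%, namely the loop from Pcdhb3, Pcdhb4 and Pcdhb5. The shorter Pcdha loop was unshared between the lens lists at 10 kb, because its Pcdhac1 anchors lay 12.5 kb apart, and shared at 25 kb.

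Over all loops of the clusters, the median ratio of observed to expected contacts was 2.93 in ES cells, 4.19 in epithelium and 3.51 in fiber cells. The medians of the whole lists were 3.06, 3.05 and 2.83, so the lens members had medians above those of their lists and the ES cell members just below. The epithelium members were called mostly at 5 kb (4 of 6), the ES cell members at 10 kb in 6 of 12 cases, and those of fiber cells at 5, 10 and 25 kb in 1, 2 and 2 cases.

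Gene starts under loop anchors were also counted. In ES cells, anchors covered 21 of the 58 starts, against 12.4% of the protein-coding genes of the promoter table. These 21 were 7 Pcdhb, 8 Pcdhga, 3 Pcdhgb, 2 Pcdha and 1 C-type start. In epithelium they covered 11 starts, against 14% of genes, and in fiber cells 9, against 13%. The starts of Pcdhb17 and Pcdhb18 lay under an anchor in all 3 lists. Those of Pcdhb3, Pcdhb4, Pcdhb5 and Pcdha11 did so in fiber cells alone, and those of Pcdhgc3 and Pcdhgb7 in epithelium alone. The Pcdha11 start counted through the longer Pcdha loop, which all 3 lists held, with 10 kb anchors in fiber cells and 5 kb anchors in the other lists. The anchors are 5 to 25 kb wide and starts within a cluster lie a few kb apart, so several neighbouring starts count through 1 anchor.

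Each cell type had a different TAD at the clusters. The ES cell TAD, chr18:37760001-37855000, was 95 kb long and held 5 gene starts, namely Pcdhgb8, Pcdhga12 and the C-type genes Pcdhgc3, Pcdhgc4 and Pcdhgc5. Its borders lay 7.5 and 2.5 kb from the anchor midpoints of the ES cell loop between Pcdhga12 and Diaph1. The fiber TAD, chr18:37750001-37880000, covered the same end of the gamma cluster but was 130 kb long and took in Pcdhgb7 and Pcdhga11 as well. Both TADs ended within Diaph1. The epithelium TAD lay elsewhere, over Pcdha. At chr18:36945001-37250000 it was 305 kb long, it held 10 of the 12 alternate Pcdha starts together with Pcdhac1 and Pcdhac2, and both Pcdha loops of epithelium ran inside it. No list had a TAD over any Pcdhb start, nor did ES cells or fiber cells over Pcdha, although each of these maps also carried a longer and a shorter Pcdha loop. The median window of 960 kb touched 1 TAD in each list.

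CTCF peaks were dense at the clusters in both lens cell types. The 20 peaks of epithelium and 19 of fiber cells stood against medians of 5 (quartiles 2 and 9) and 7 (3 and 12) per 960 kb window, so both counts were above the upper quartile. The peaks were not among the strongest of their lists. Fold enrichment over background ranged from 3.64 to 7.24 in epithelium, with a median of 5.1 against 5.78 over the whole list. In fiber cells it ranged from 4.17 to 9.31, with a median of 6.42 against 6.44 in the list. The sequencing depth behind the peaks is not given in the lists, and whether a site listed in 1 cell type fell just under the calling threshold in the other was not tested.

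**Figure D3:**
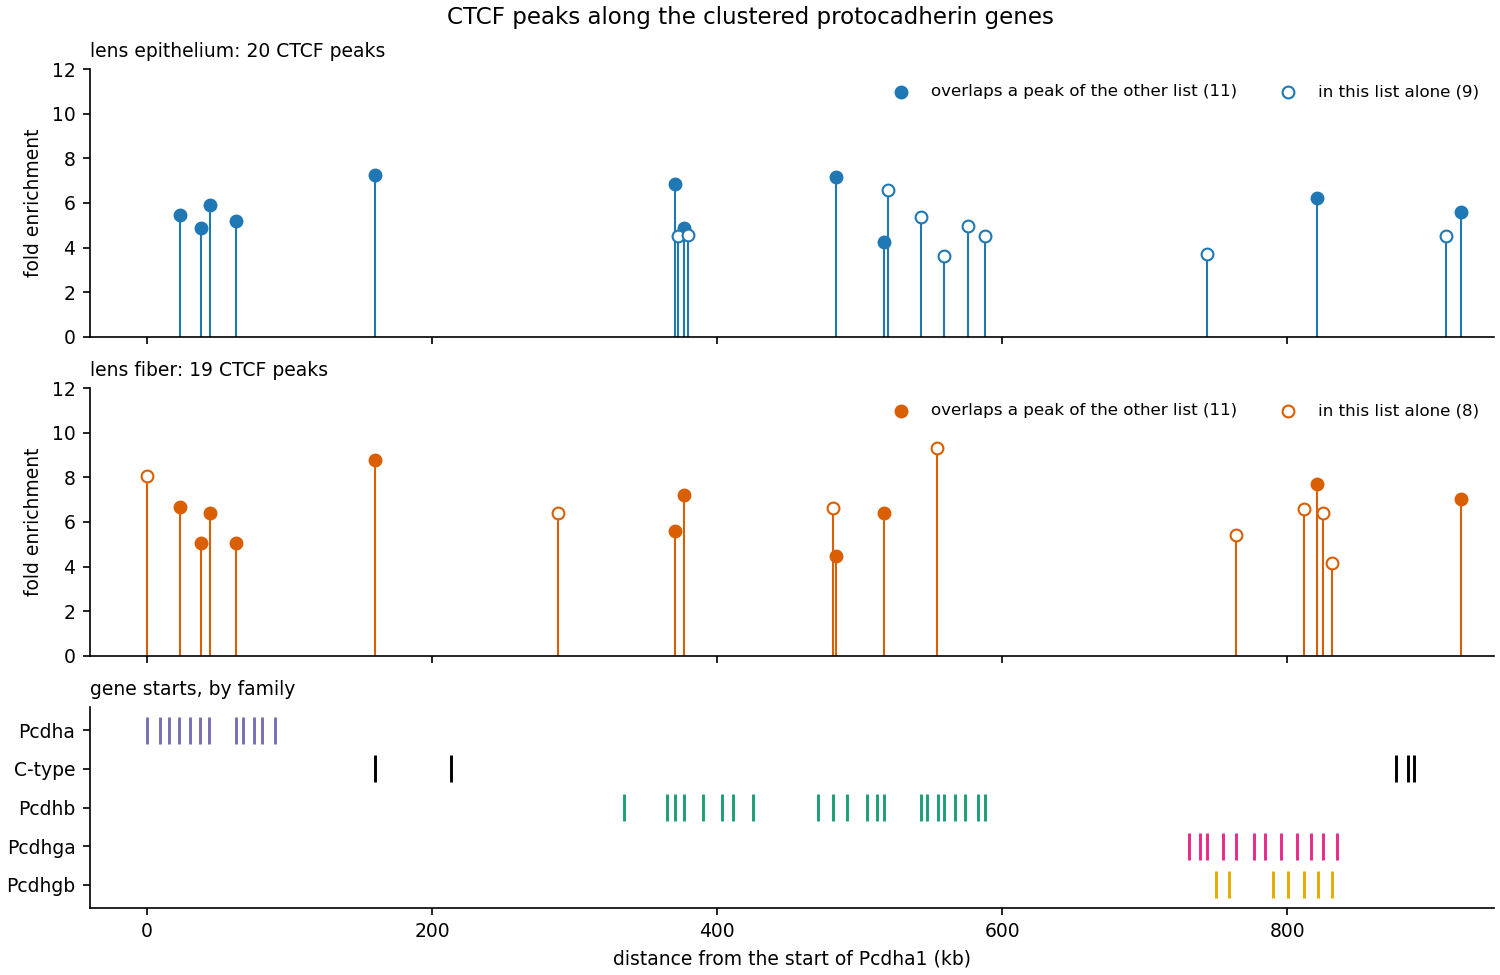
CTCF peaks of epithelium and fiber cells along the clusters; the x axis is the distance of the summit from the start of Pcdha1 in kb, the y axis is fold enrichment, filled circles overlap a peak of the other list and open circles do not, and ticks are gene starts by family. Of 20 and 19 peaks, 11 overlap, among them 4 between Pcdha4 and Pcdha8, while most of the peaks over the end of Pcdhb and over Pcdhg stand in 1 list alone.

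The cell types shared 11 peaks, 55% of those of epithelium (exact 95% binomial interval 31.5 to 76.9) and 57.9% of those of fiber cells (33.5 to 79.7). The shares over the whole lists were 72.8% and 50.1%, both inside these intervals. The shared peaks had summits a median of 44 bp apart. Together the lists marked 28 separate sites. By segment, the Pcdha cluster had 5 peaks in each list, Pcdhb had 11 in epithelium and 6 in fiber cells, and Pcdhg had 3 and 5. The 140.4 kb between Pcdhb and Pcdhg, which holds Slc25a2, a mitochondrial ornithine carrier, and Taf7, a subunit of the general transcription factor TFIID, had none in either list. Past Pcdhg, both lists had a peak in Diaph1, with summits at 37852398 and 37852283. Past the window, the first peaks under a loop anchor, at 37883687 in epithelium and 37877542 in fiber cells, were not members.

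At the alternate Pcdha genes the shared summits lay within the genes, downstream of the start. Pcdha4 had a fold enrichment of 5.45 in epithelium and 6.68 in fiber cells, with summits 543 and 545 bp after the start. Pcdha6 had 4.88 and 5.04, at 602 and 614 bp. Pcdha7 had 5.9 and 6.42, at 553 and 597 bp. Pcdha8 had 5.21 and 5.04, at 508 and 464 bp, on either side of the 500 bp used here to call a summit at a gene start. Of the other alternate Pcdha genes, Pcdha1 alone had a peak, in fiber cells alone, with a fold of 8.07 and a summit at -224 bp, where a negative position is upstream of the start. The 4 shared positions were thus a short way into their genes, and the Pcdha1 summit lay on the other side of its start.

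Pcdhac1 carried the strongest peak of epithelium and the next to strongest of fiber cells. Its fold enrichment was 7.24 and 8.8, with summits at -174 and -190 bp. Among the C-type genes it was the only 1 of 5 with a peak at its start in either list. The other end of the Pcdha loops, in the gap before Pcdhb, had a peak in fiber cells alone, chr18:37218260-37218481, with a fold of 6.42. In fiber cells the anchor at the gap was thus occupied, whereas the epithelium list had no peak there at the matching end of its 2 Pcdha loops.

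The Pcdhb genes had peaks at 2 positions, just upstream of the start and more than 2 kb downstream of it. At the start, Pcdhb3 had a fold enrichment of 6.85 in epithelium and 5.58 in fiber cells, with summits at -13 and -14 bp. Pcdhb4 had 4.89 and 7.22, with summits at -108 and -33 bp. At Pcdhb14 the pair differed most in place, with a fold of 4.26 and a summit at 101 bp in epithelium, and a fold of 6.4 and a summit at -98 bp in fiber cells. Peaks at the starts of Pcdhb15 (5.39), Pcdhb18 (3.64) and Pcdhb22 (4.54) were in the epithelium list alone. Those at Pcdhb10 (6.64) and Pcdhb17 (9.31) were in the fiber list alone, and the Pcdhb17 peak was the strongest of the clusters in either list. The remaining 14 of 22 Pcdhb starts had no peak.

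Summits far inside Pcdhb genes were mostly a feature of the epithelium list. Pcdhb3, Pcdhb4, Pcdhb10, Pcdhb14 and Pcdhb20 had 1 each in epithelium, between 2265 and 2431 bp after the start, with folds of 4.52, 4.55, 7.17, 6.59 and 4.99. In fiber cells Pcdhb10 alone had such a peak, at 2350 bp with a fold of 4.46. At Pcdhb3, Pcdhb4 and Pcdhb14 the epithelium list thus held a peak at the start and another inside the gene, and fiber cells had the one at the start. At Pcdhb10 it was fiber cells that had both.

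**Figure D4:**
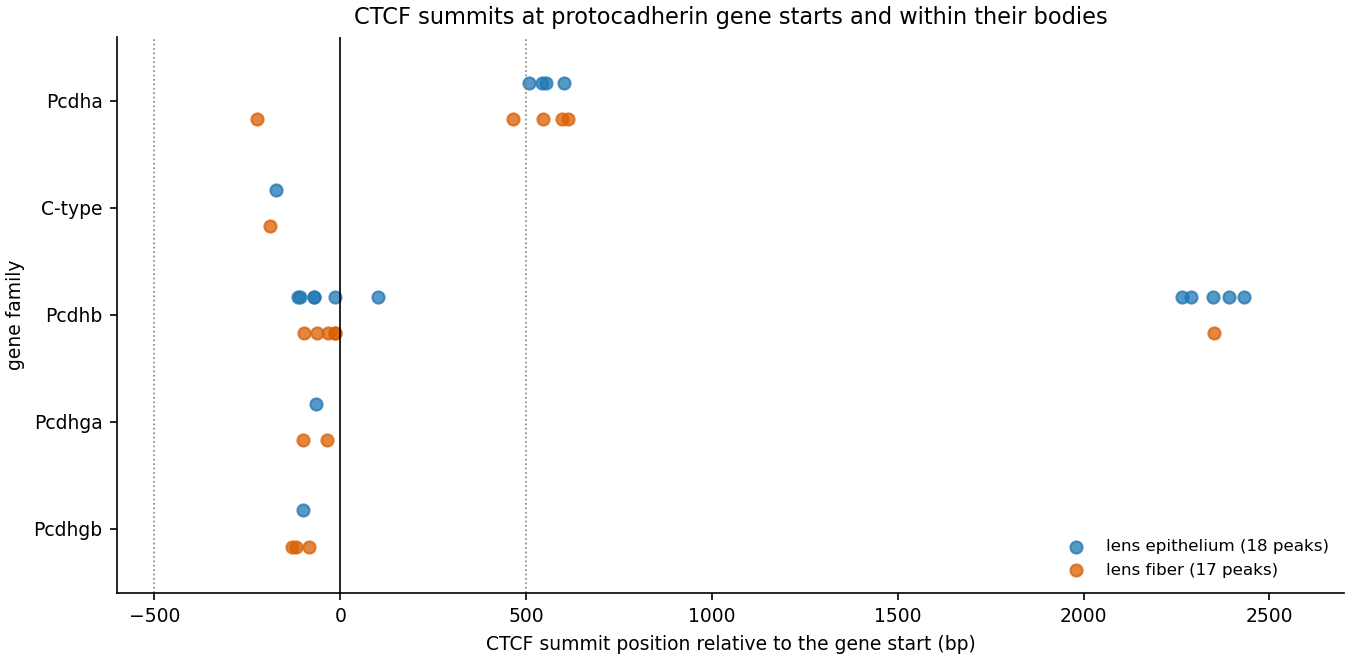
Position of CTCF summits relative to the gene start in bp (x axis, negative is upstream) by gene family (y axis), for 18 peaks of epithelium and 17 of fiber cells at gene starts or within gene bodies; dotted lines mark 500 bp on either side. Summits of Pcdhb, Pcdhga, Pcdhgb and C-type genes cluster just upstream of the start, those of Pcdha lie between 464 and 614 bp after it except at Pcdha1, and a further set of Pcdhb summits lies between 2265 and 2431 bp.

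In the gamma cluster the peaks at gene starts were upstream in both lists, at different genes apart from Pcdhgb7. Pcdhgb7 had a fold enrichment of 6.21 in epithelium and 7.71 in fiber cells, with summits at -99 and -118 bp. Fiber cells had further peaks at Pcdhga5 (5.42), Pcdhgb6 (6.59), Pcdhga11 (6.39) and the pseudogene Pcdhgb8 (4.17), so that 4 of its 5 gamma peaks stood at or near Pcdhgb7, at the end of the row of alternate genes. Epithelium had a peak at Pcdhga3 (3.69), among the weakest of its members, and a peak at 37841518 by the end of the constant exons (4.51). None of the starts of Pcdhgc3, Pcdhgc4 and Pcdhgc5 had a peak.

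Over all 58 genes, 9 had a summit within 500 bp of the start in epithelium, 15.5% (exact 95% binomial interval 7.35 to 27.4), and 13 in fiber cells, 22.4% (12.5 to 35.3). Among 17492 protein-coding genes of the promoter table, none of them on chromosome 18, the shares were 1.97% and 7.75%, under the lower bounds of both intervals. Neighbouring paralogs are not independent, and the intervals cover counting error only. Of the 17 starts with a peak in either list, 5 had one in both, namely Pcdhac1, Pcdhb3, Pcdhb4, Pcdhb14 and Pcdhgb7. The summits at starts were upstream in 8 of 9 cases in epithelium, with a median position of -72 bp, and in 12 of 13 in fiber cells, with a median of -84 bp. The authors kept uniquely mapped reads, and the variable exons are close paralogs, and whether starts without a peak lie in sequence to which few reads could be assigned was not tested.

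The 11 shared peaks were stronger in fiber cells at 8 sites and in epithelium at 3. The ratio of fiber to epithelium fold enrichment ran from 0.622 to 1.5, with a median of 1.22, against a ratio of 1.11 between the medians of the 2 lists. The widest gaps were at the Pcdhb14 start, 1.5 times higher in fiber cells, at the Pcdhb4 start, 1.48 times higher, and at the peak inside Pcdhb10, at 0.622 of the epithelium value. The Pcdhb14 summits lay 199 bp apart, the largest offset of the shared pairs. Shared peaks numbered 9 with summits within 100 bp and 10 with a reciprocal overlap of at least 50%, and the Pcdhb14 pair met neither rule. Peaks in epithelium alone had a median fold of 4.54, below the 5.61 of its shared peaks. In fiber cells the medians were 6.51 alone and 6.42 shared.

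**Figure D5:**
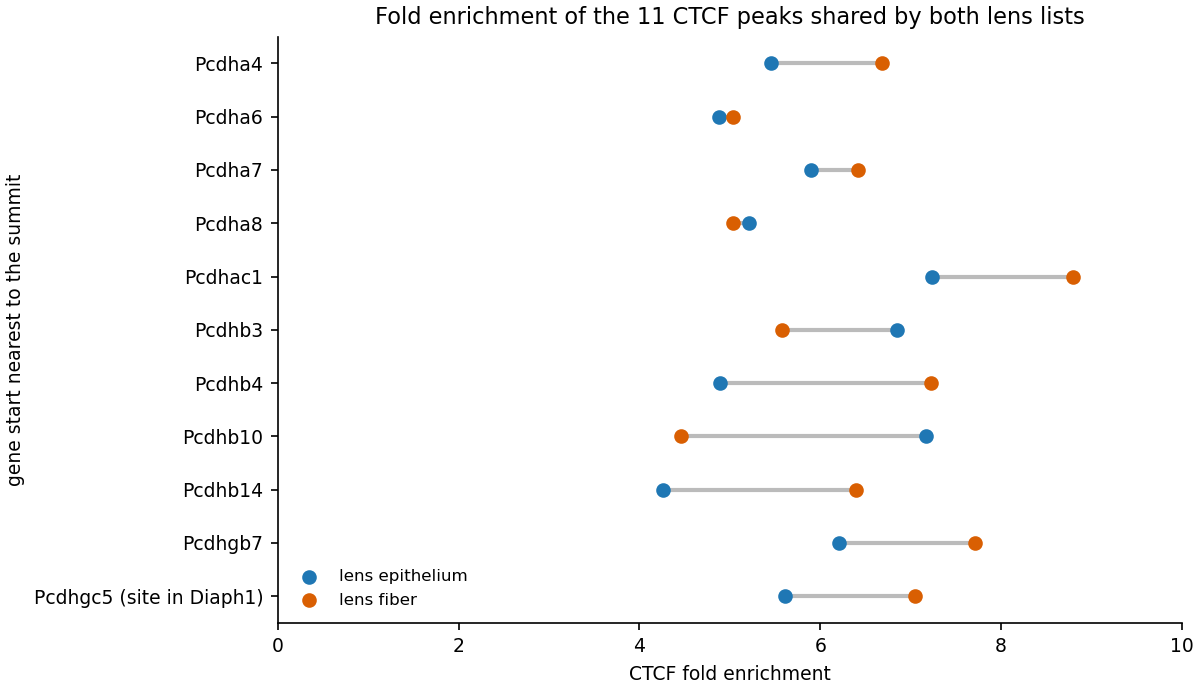
CTCF fold enrichment (x axis) of the 11 sites with a peak in both lens lists, each named by the nearest gene start (y axis), with epithelium and fiber values joined by a line. The fiber value is the higher at 8 sites, by up to 1.5 times, and the epithelium value at Pcdha8, Pcdhb3 and the site inside Pcdhb10.

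The peaks were then set against the loop anchors. Of the 6 epithelium loops, 1 had a epithelium peak at both anchors and 3 at 1 or both, against 15.7% and 60.5% of all loops of that list. Of the 5 fiber loops, 3 had a fiber peak at both anchors and all 5 at 1 or both, against 39.1% and 83.4% of the list. The order of the 2 lists at both anchors turned with the peaks used, since 3 epithelium loops had fiber peaks at both anchors and 2 fiber loops had epithelium peaks there. The fiber loops with both ends occupied were the shorter Pcdha loop and the pair that ended at the far Diaph1 anchor, from Pcdhb3 to Pcdhb5 and from Pcdhb16 to Pcdhb19. That anchor alone held 4 fiber peaks, with folds of 6, 4.97, 5.13 and 6.85, and 1 epithelium peak, with a fold of 4.27. The epithelium loop with both ends occupied was the same Pcdhb16 to Pcdhb19 loop, through the weak peak at Pcdhb18 and that peak in Diaph1.

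At the Pcdha loops the occupied ends differed between the lists. In fiber cells the Pcdhac1 peak reached into the anchor of the shorter loop and the peak in the gap lay in the other anchor, whereas the longer loop had the peak in the gap alone. In epithelium neither Pcdha loop had an epithelium peak at either end. The Pcdhac1 peak lay before the 5 kb bin of the shorter loop, and the other ends had no epithelium peak in them. Counted by peaks, 2 of 20 members of epithelium and 6 of 19 of fiber cells lay in a loop anchor of their own cell type, against 30.8% and 34.5% of all peaks of these lists. In ES cell anchors lay 8 of each, against 29.5% and 32.5%. The ES cell loops had 19 distinct anchors, of which 10 held an epithelium peak and 11 a fiber peak.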

How the data were processed

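The deposited lists came from Hi-C of ES cells and of the lens cell types and from CTCF ChIP-seq of the lens cell types, mapped to mm10. Per the labels and the study's methods, the authors merged 2 Hi-C replicates per cell type in Juicer, called loops with HiCCUPS (juicer_tools 2.13.06 in the file header) and TADs with Arrowhead, and called CTCF peaks with MACS2 from uniquely mapped reads. The loop lists deposited by the authors hold observed contacts as counts, expected contacts as model values given here the unit score, and FDRs as q-values. The peak lists deposited by the authors hold fold enrichment, −log10 p and q-values and a score. For ChIP-seq, GEO lists 1 sample per lens cell type with 6 µg of chromatin, while the methods describe replicates, and each list was taken as 1 sample.

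The gene table was RefSeq on GRCm38.p6, without strand or exons. Gene starts were taken as the lower coordinate, since the clusters are transcribed toward higher coordinates. A summit within 500 bp was at a start, and a summit further on, up to 3000 bp past a start, was within the gene body. Loops were shared when both midpoints lay within 10 kb, and peaks when they overlapped by 1 bp. Intervals were exact Poisson or Clopper-Pearson at 95% and cover counting error only. The deposited lists hold no sequencing depth, and none was used here. The genes named were all 58 of the clusters with a summit at the start or an anchor over it, those with a body peak and the other genes under anchors or in the gaps. Members, lists and rules were chosen with earlier results of these data known. The interval operations were tested on simulated data with known answers (10 of 10 checks passed). Python 3.11.15, pandas 2.3.3 and scipy 1.17.1 were used. Sequences of the clusters were not used here.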

Additional observations from a re-analysis of the deposited data

How the results depend on the processing

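Of 48 recounts under alternative settings, 33 stayed within 1.5 times the reported count and 15 did not. Orders between lists that differ by a few members turned: CTCF peaks went from 20 in epithelium against 19 in fiber cells to 18 against 19 at −log10 q above 3, and ES cell loops shared with epithelium against fiber cells from 2 against 3 to 4 against 3 at 25 kb. Requiring TADs of at least 200 kb left 0 in ES cells and 0 in lens fiber cells, and requiring TADs wholly inside the window left 0 in lens fiber cells, whose TAD runs past its end. The lens fiber loops fell to 3 when both anchors had to lie in the window, 3 with anchors of 5 or 10 kb only, both of which drop its Diaph1 loops from Pcdhb, and 3 with the largest FDR below 0.01, which drops the shorter Pcdha loop (0.0108) and the Pcdhga12 loop (0.0214). The same FDR limit left 8 ES cell loops and 5 lens epithelium loops. In ES cells it dropped the loop to Pcdha8 and Pcdha9 (0.017) and the Pcdhb20 loop (0.0104). It also dropped those from Pcdhb21 and Pcdhb22 to Pcdhga5 (0.0137) and past Pcdhg (0.014). In lens epithelium it dropped the shorter Pcdha loop (0.0483). With midpoints allowed 25 kb apart, 4 lens epithelium loops were shared with lens fiber cells, 4 lens fiber loops with lens epithelium and 4 ES cell loops with lens epithelium. With overlap of both anchors in place of distance, 1 lens epithelium loop was shared with ES cells and 1 ES cell loop with lens epithelium. Among the stronger 50% of each peak list, 6 lens epithelium and 9 lens fiber peaks were left. Lens epithelium loops with CTCF at both anchors numbered 3 with anchors widened by 5 kb and 3 with lens fiber peaks in place of its own, against 2 lens fiber loops with epithelium peaks. The cause was not tested where no reason is given. No paired analysis was possible because the replicates were merged into 1 list per cell type. Contact counts of 19 to 142 per loop limit the precision of each ratio.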
